A study of Mus musculus with 12 samples.

Results

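The genes described here encode killer cell lectin-like receptors of the NK cell type, Klrc1, Klrc2, Klrd1, Klrk1, Klrg1, Klrb1c, Klrb1f, Klre1 and Klri2, together with Ncr1, an NK cell receptor of the immunoglobulin family. They were taken by name, and all 10 were found among the 55413 genes of the count and FPKM tables. Bulk RNA sequencing was done on 12 libraries of regulatory T cells (Treg, the Foxp3-expressing CD4 T cells that restrain immune responses). Tumor pTreg (n = 3) and tumor tTreg (n = 5) were sorted from Hepa1-6 tumors, a mouse hepatoma line grown in TCRbd-/- mice, on day 18 after inoculation. Those hosts had received thymus-derived tTreg of CD45.1 Foxp3YFP-cre donors, along with CD8 T cells and conventional CD4 T cells negative for Foxp3 from CD45.2 Foxp3YFP-cre donors, 3 days before the tumor cells. The third group, LN Treg (n = 4), is total Treg from lymph nodes of tumor-free mice. The labels give Foxp3YFP-cre and TCRbd-/- as genotype for all libraries and no age. TCRbd-/- hosts lack T cells of their own but, as background, keep NK cells and B cells, and CD8 T cells had been transferred into the same hosts. The labels do not say that libraries came from separate animals, so the spread behind the p-values is one between libraries and may be technical.

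CD94, the product of Klrd1, pairs either with NKG2A (Klrc1), which inhibits through phosphatases, or with NKG2C (Klrc2), which activates through the adaptor DAP12. Both pairs bind the nonclassical class I molecule Qa-1b. NKG2D (Klrk1) is an activating receptor for stress-induced ligands and signals through DAP10, while KLRG1 binds cadherins and marks effector T cells and effector Treg. Klrb1c encodes NK1.1 and Ncr1 encodes NKp46, both used to identify NK cells.

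The promoters of the receptors on which most results turn are shown as the 250 bases before and 50 bases after the start in RefSeq (GRCm38.p6), 5′ to 3′ on the strand of the gene, with capitals for the RUNX letters TGTGGT on either strand (ACCACA on the other). Klrc1 and Klrc2 are shown as the alternative partners of CD94, Klrk1 as the gene whose levels followed another pattern, and Ncr1 as the member without counts in tumor pTreg. The windows lie at chr6:129678924-129679223 (minus strand) for Klrc1, chr6:129660547-129660846 (minus strand) for Klrc2, chr6:129623815-129624114 (minus strand) for Klrk1 and chr7:4337465-4337764 (plus strand) for Ncr1.
Klrc1: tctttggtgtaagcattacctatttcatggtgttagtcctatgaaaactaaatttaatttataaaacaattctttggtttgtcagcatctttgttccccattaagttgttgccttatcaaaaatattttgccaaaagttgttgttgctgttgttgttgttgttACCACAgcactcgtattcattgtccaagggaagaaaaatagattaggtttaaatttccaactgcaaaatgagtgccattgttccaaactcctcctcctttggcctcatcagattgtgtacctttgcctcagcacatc
Klrc2: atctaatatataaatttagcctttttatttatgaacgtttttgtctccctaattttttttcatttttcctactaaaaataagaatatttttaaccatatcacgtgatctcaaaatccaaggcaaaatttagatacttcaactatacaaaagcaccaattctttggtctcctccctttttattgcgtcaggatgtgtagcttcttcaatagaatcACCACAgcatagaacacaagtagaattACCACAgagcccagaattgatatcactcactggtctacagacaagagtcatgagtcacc
Klrk1: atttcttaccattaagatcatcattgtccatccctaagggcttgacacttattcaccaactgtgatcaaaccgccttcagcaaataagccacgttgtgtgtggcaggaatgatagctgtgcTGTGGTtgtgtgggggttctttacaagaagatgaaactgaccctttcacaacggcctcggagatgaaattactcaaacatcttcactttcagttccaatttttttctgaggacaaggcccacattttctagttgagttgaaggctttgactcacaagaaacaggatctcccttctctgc
Ncr1: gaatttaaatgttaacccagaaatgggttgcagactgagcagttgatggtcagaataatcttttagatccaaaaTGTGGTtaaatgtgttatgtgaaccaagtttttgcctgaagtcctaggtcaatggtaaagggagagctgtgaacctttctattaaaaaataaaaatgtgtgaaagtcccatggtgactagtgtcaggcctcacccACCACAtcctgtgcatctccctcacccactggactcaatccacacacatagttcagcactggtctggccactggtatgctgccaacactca

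RefSeq windows were matched for 7 of the 10 members. The RUNX letters were in 6 of these 7 windows, once at 87 bases before the start of Klrc1, at 36 and 9 bases in Klrc2, at 129 bases in Klrk1, at 176 and 41 bases in Ncr1, at 89 bases in Klrb1c and at 229 bases in Klre1, counted from the start to the 5′ base of each match. They were in 16.8% of all 32851 windows of this length. Klrb1f was the window without them, and it held the T-box letters GGTGTG at 123 and 58 bases before the start, letters found in 19.0% of all windows. The ETS letters GGAAGT were in the windows of Klrb1c and Klrb1f and in 23.8% of all windows. These matches are descriptions of letters and were not tested for binding.

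In the GENCODE annotation of GRCm38, 9 members lie on chromosome 6 and Ncr1 on chromosome 7. Klre1 (chr6:129577905-129585827), Klrd1 (chr6:129591782-129598775), Klrk1 (chr6:129610323-129623864), Klrc2 (chr6:129647496-129660689), Klrc1 (chr6:129666015-129678973) and Klri2 (chr6:129729041-129740484) are neighbours, and Klrg1 stands apart at chr6:122270596-122282882. Klrc1 and Klrc2 share part of their sequence. Of the 50-base stretches in Klrc1 transcripts 36.5% are also in Klrc2 transcripts, and 22.4% of those in Klrc2 transcripts are also in Klrc1 transcripts. The split of reads between them is therefore uncertain. Klrb1c shares 413 exon bases with Gm44511 and its counts are uncertain for the same reason.

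Library totals ran from 18.0 to 18.2 M counts for tumor pTreg, from 18.1 to 18.5 M for tumor tTreg and from 14.6 to 17.3 M for LN Treg. T cell transcripts took very different shares of the 3 groups. The summed level of 14 pan-T genes (such as Cd3e, Trac and Lck) was 1130 to 1160 counts-per-million (CPM) in tumor pTreg, 104 to 110 in tumor tTreg and 5390 to 5520 in LN Treg. The 5 Treg genes Foxp3, Il2ra, Ikzf2, Ctla4 and Cd4 summed to 571 to 590, 162 to 170 and 3030 to 3140 CPM in the same groups. In the tumor groups most of that sum was Cd4, which averaged 326 CPM over tumor pTreg libraries, 92.4 over tumor tTreg libraries and 651 over LN Treg libraries. Foxp3 itself read 20.3 ± 0.583 CPM in tumor pTreg, 8.74 ± 0.478 in tumor tTreg and 441 ± 11.1 in LN Treg. Per pan-T count its log2 difference was -2.20 for tumor pTreg against tumor tTreg and -2.18 for tumor pTreg against LN Treg (adjusted p = 5.98e-26 and 3.22e-30). For tumor tTreg against LN Treg it was 0.019 (adjusted p = 0.731). The medians of all tested genes on that scale were -3.44, 2.26 and 5.68 in the same order. Macrophage markers (10 genes) summed to 5920 to 5970 CPM in tumor pTreg, 6000 to 6350 in tumor tTreg and 32.7 to 41.0 in LN Treg. Hepatoma markers (8 genes) summed to 5340 to 5710, 7880 to 8230 and 7.38 to 9.53 CPM. In bulk samples fewer cells of a type and less RNA per cell cannot be told apart. Each comparison of the tested members is therefore given per library total (TMM scaling of edgeR) and also per pan-T count. For the members with too few counts to test, group means per pan-T count are given.

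**Figure D1:**
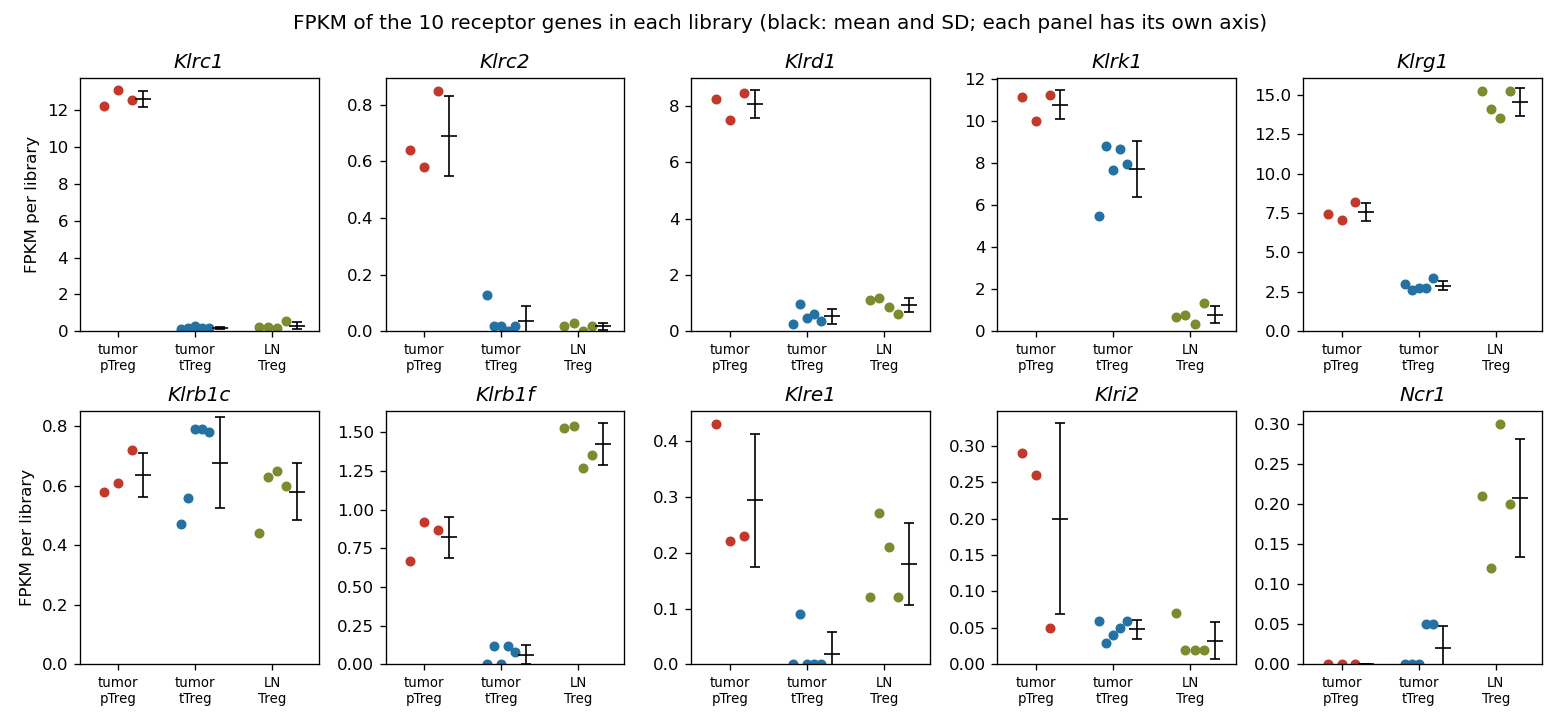
FPKM (a level per transcript length and depth) of each of the 10 genes, 1 point per library, with black bars for mean and SD in tumor pTreg (n = 3), tumor tTreg (n = 5) and LN Treg (n = 4); axes start at 0 and differ between panels. Klrc1, Klrc2 and Klrd1 stand high in tumor pTreg alone, Klrk1 is high in both tumor groups, Klrg1 and Klrb1f are highest in LN Treg, and Ncr1 is at 0 in every tumor pTreg library.

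Klrc1, the inhibitory partner of CD94, was the most abundant of the 10 in tumor pTreg by FPKM. It read 15.7, 16.6 and 17.1 CPM in the tumor pTreg libraries, against 0.219, 0.109, 0.270, 0.329 and 0.276 CPM in tumor tTreg and 0.353, 0.206, 0.346 and 0.581 CPM in LN Treg. Every tumor pTreg library was far above every other library, while the ranges of tumor tTreg and LN Treg overlapped. The log2 fold change was 6.06 (SE 0.162, adjusted p = 1.09e-22) against tumor tTreg, which is 66.9-fold, and 5.52 (SE 0.165, adjusted p = 1.27e-22) against LN Treg, which is 45.9-fold. Between tumor tTreg and LN Treg it was -0.54 (SE 0.384) and missed the threshold (adjusted p = 0.2). In all tumor tTreg libraries together there were 22 counts of Klrc1.

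Klrc2, the activating partner, followed the same groups at a lower level. It had 31, 28 and 41 counts in tumor pTreg libraries, against 1, 1, 1, 0 and 1 in tumor tTreg and 1, 1, 0 and 1 in LN Treg. The groups did not overlap between tumor pTreg and the others. From summed counts the ratio of tumor pTreg to tumor tTreg was 42.2 (95% exact interval 16.0 to 158, counting error only) and that of tumor pTreg to LN Treg was 40.6 (13.5 to 200). The edgeR adjusted p were 1.66e-11 and 1.47e-11. By FPKM, Klrc1 made up 93.6 to 95.7% of Klrc1 plus Klrc2 in tumor pTreg, a share that rests on the authors' division of reads between genes that share sequence.

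Klrd1, the CD94 chain that both need, read 4.46, 4.23 and 4.32 CPM in tumor pTreg libraries, against 0.164, 0.328, 0.270, 0.329 and 0.166 CPM in tumor tTreg and 0.588, 0.549, 0.462 and 0.291 CPM in LN Treg. Tumor pTreg again stood above all other libraries. Its log2 fold change was 4.08 (SE 0.232, adjusted p = 8.39e-15) against tumor tTreg and 3.29 (SE 0.226, adjusted p = 7.44e-14) against LN Treg. For tumor tTreg against LN Treg it was -0.79 (SE 0.36, adjusted p = 0.0464), with overlapping libraries. DESeq2 gave an adjusted p of 0.0772 there, RLE factors 0.0524 and no filter 0.0765, and the fits without LN Treg replicate 1, 2 or 3 or without tumor tTreg replicate 1, 3 or 5 gave 0.0538 to 0.134, so that call was lost in each.

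Klrk1 set both tumor groups apart from lymph node. It read 12.4, 12.8 and 12.6 CPM in tumor pTreg libraries, against 7.33, 9.67, 8.43, 8.76 and 8.95 CPM in tumor tTreg and 0.883, 0.755, 0.520 and 0.988 CPM in LN Treg. All 3 groups were separate, and the gap between the tumor groups was small beside the gap to LN Treg. The log2 fold change was 4.09 (SE 0.149, adjusted p = 1.77e-20) for tumor pTreg against LN Treg and 3.54 (SE 0.149, adjusted p = 4.26e-19) for tumor tTreg against LN Treg. Between tumor pTreg and tumor tTreg it was 0.55 (SE 0.0863, adjusted p = 4.52e-06), a call that limma on log2(FPKM + 0.1) did not give (0.49, adjusted p = 0.188). The macrophage and hepatoma sums given above were also high in both tumor groups, and their part in the level of Klrk1 was not tested.

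Klrg1 ran in another order, with LN Treg highest. It read 8.25, 7.85 and 9.02 CPM in tumor pTreg libraries, against 3.34, 2.90, 3.03, 3.01 and 3.70 CPM in tumor tTreg and 16.7, 15.6, 15.1 and 16.7 CPM in LN Treg. No library of one group reached into another. Tumor pTreg was higher than tumor tTreg by 1.40 on the log2 scale (SE 0.104, adjusted p = 3.27e-12) and lower than LN Treg, with a log2 fold change of -0.83 (SE 0.083, adjusted p = 2.71e-10). For tumor tTreg against LN Treg it was -2.23 (SE 0.0862, adjusted p = 5.43e-20).

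The members of the Klrb1 group, whose products bind Clec2 proteins or signal in NK cells, behaved differently from each other. Klrb1c read 0.990, 1.06 and 1.38 CPM in tumor pTreg libraries, against 0.766, 0.874, 1.35, 1.26 and 1.22 CPM in tumor tTreg and 0.765, 0.892, 1.04 and 0.639 CPM in LN Treg. The 3 groups overlapped and no comparison passed the threshold, with log2 differences of 0.07 (SE 0.254), 0.56 (SE 0.284) and 0.49 (SE 0.254) for tumor pTreg against tumor tTreg, tumor pTreg against LN Treg and tumor tTreg against LN Treg (adjusted p = 0.837, 0.0677 and 0.0721). Without LN Treg replicate 3 both differences from LN Treg passed, at 0.68 for tumor pTreg (adjusted p = 0.0445) and 0.61 for tumor tTreg (adjusted p = 0.047), and without tumor tTreg replicate 1 that of tumor tTreg passed at 0.60 (adjusted p = 0.0317).

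Klrb1f read 0.935, 1.28 and 1.22 CPM in tumor pTreg libraries, against 0, 0.164, 0, 0.110 and 0.111 CPM in tumor tTreg and 2.12, 2.13, 1.79 and 1.86 CPM in LN Treg. Tumor tTreg held 7 counts in all, LN Treg was highest, and no groups overlapped. The log2 fold changes were 3.79 (SE 0.44, adjusted p = 2.78e-08) for tumor pTreg against tumor tTreg and -4.47 (SE 0.378, adjusted p = 6.89e-12) for tumor tTreg against LN Treg. For tumor pTreg against LN Treg it was -0.68 (SE 0.26, adjusted p = 0.0174), and without tumor pTreg replicate 1 it was -0.55 (adjusted p = 0.0895).

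Klre1, Klri2 and Ncr1 had too few counts to pass the filter. Klre1 and Klri2 encode chains of the same receptor family that pair with each other. Klre1 had 7, 4 and 4 counts in tumor pTreg libraries, against 0, 1, 0, 0 and 0 in tumor tTreg and 2, 3, 3 and 2 in LN Treg; the ratio of summed counts per depth between the tumor groups was 25.3 (95% exact interval 3.89 to 1070). Klri2 had 19, 17 and 3 counts in tumor pTreg libraries, against 4, 2, 3, 3 and 4 in tumor tTreg and 4, 1, 1 and 1 in LN Treg. The third tumor pTreg library lay within the range of the other groups. Per depth the summed counts of tumor pTreg were 4.11 times those of tumor tTreg (2.24 to 7.88) and 6.79 times those of LN Treg (3.0 to 18.0). Per 100 pan-T counts Klri2 averaged 0.0628 in tumor pTreg, 0.164 in tumor tTreg and 0.00193 in LN Treg. Tumor pTreg was thus lower than tumor tTreg on that scale, as were 97.3% of tested genes. Klre1 averaged 0.0242, 0.0105 and 0.0028 in the same order, the tumor tTreg value resting on 1 count.

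Per depth Ncr1 went the other way. It had 0 counts in each of the 3 tumor pTreg libraries, against 0, 0, 0, 1 and 1 in tumor tTreg and 4, 2, 6 and 4 in LN Treg. Tumor pTreg was at least 4.37-fold lower than LN Treg, taking a floor of 3 counts over the group (0.0553 CPM, against 0.242 CPM in LN Treg). Between tumor tTreg and LN Treg, 2 counts against 16, the ratio was 0.0904 (95% exact interval 0.0101 to 0.384). Both tumor groups were at or under the floor, so no fold is given between them. Per 100 pan-T counts Ncr1 averaged 0 in tumor pTreg, 0.0202 in tumor tTreg and 0.00436 in LN Treg. On that scale the mean of tumor tTreg, from 2 counts, was above that of LN Treg.

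In edgeR's quasi-likelihood test 6 of the 7 tested members were higher in tumor pTreg than in tumor tTreg and 0 were lower (also 0 at an unadjusted p below 0.05 and 0 by DESeq2). Of all 15705 genes tested, 26.8% were called higher and 25.3% lower in that comparison (4204 and 3980 genes; 3572 and 4872 with RLE factors, 3328 and 4315 with DESeq2), 52.1% in all. Klrc1, Klrc2 and Klrd1 passed the filter through the tumor pTreg libraries, where they are high, so the count is a description and not support. Over all 10 members, filter or not, tumor pTreg libraries lay above every tumor tTreg library for 7 and below for 0, where 24.4% of tested genes lay above and 24.0% below. The same counts were 5 above and 3 below for tumor pTreg against LN Treg (43.6% and 42.3% of genes) and 1 above and 4 below for tumor tTreg against LN Treg (43.2% and 42.0%).

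Against LN Treg, tumor pTreg had 4 members higher and 2 lower, where 47.6% of genes were called higher and 39.8% lower (87.5% in all). Tumor tTreg had 1 member higher, Klrk1, and 3 lower, Klrd1, Klrg1 and Klrb1f, where 48.1% were called higher and 42.3% lower (90.3% in all). The comparisons with LN Treg share its libraries. Each share of members rests on 7 genes and is read only as a count.

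Per pan-T count the picture between the tumor groups changed for several members. Klrc1 averaged 1.44 ± 0.0589 per 100 pan-T counts in tumor pTreg, 0.224 ± 0.0739 in tumor tTreg and 0.00683 ± 0.00292 in LN Treg (SD, n = 3, 5 and 4). The difference between the tumor groups stayed in the same direction, at 2.67 on the log2 scale (adjusted p = 1.72e-13), and it did so for Klrc2 at 1.97 (adjusted p = 0.00224). Klrd1 averaged 0.379 ± 0.0143, 0.235 ± 0.0763 and 0.00865 ± 0.0024 per 100 pan-T counts, with a log2 difference of 0.69 between the tumor groups (adjusted p = 0.0282) that missed the threshold when CD3 genes alone set the scale (0.61, adjusted p = 0.0692).

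Klrk1 turned round. It averaged 1.10 ± 0.00652 per 100 pan-T counts in tumor pTreg, 8.08 ± 0.802 in tumor tTreg and 0.0144 ± 0.00384 in LN Treg, and the log2 difference of tumor pTreg from tumor tTreg was -2.88 (adjusted p = 2.61e-26). Klrg1, at 0.732 ± 0.0587, 2.99 ± 0.303 and 0.294 ± 0.0183, also turned round, with -2.03 between the tumor groups (adjusted p = 5e-18), and Klrb1c was at -3.35 (adjusted p = 1.46e-14). Under this scaling the median of all tested genes was itself -3.44 in that comparison, with 97.3% of genes lower and 0.484% higher. Relative to that median Klrk1 and Klrg1 were above it and Klrb1c was near it. Klrb1f, at 0.48, did not pass (adjusted p = 0.41). Against LN Treg all 7 tested members were higher per pan-T count in tumor pTreg and 6 in tumor tTreg, where 91.3 and 96.9% of genes were higher and 4.21 and 0.923% lower; Klrg1 and Klrb1f in tumor pTreg, and Klrc1, Klrd1, Klrg1 and Klrb1f in tumor tTreg, thereby changed sign.

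**Figure D2:**
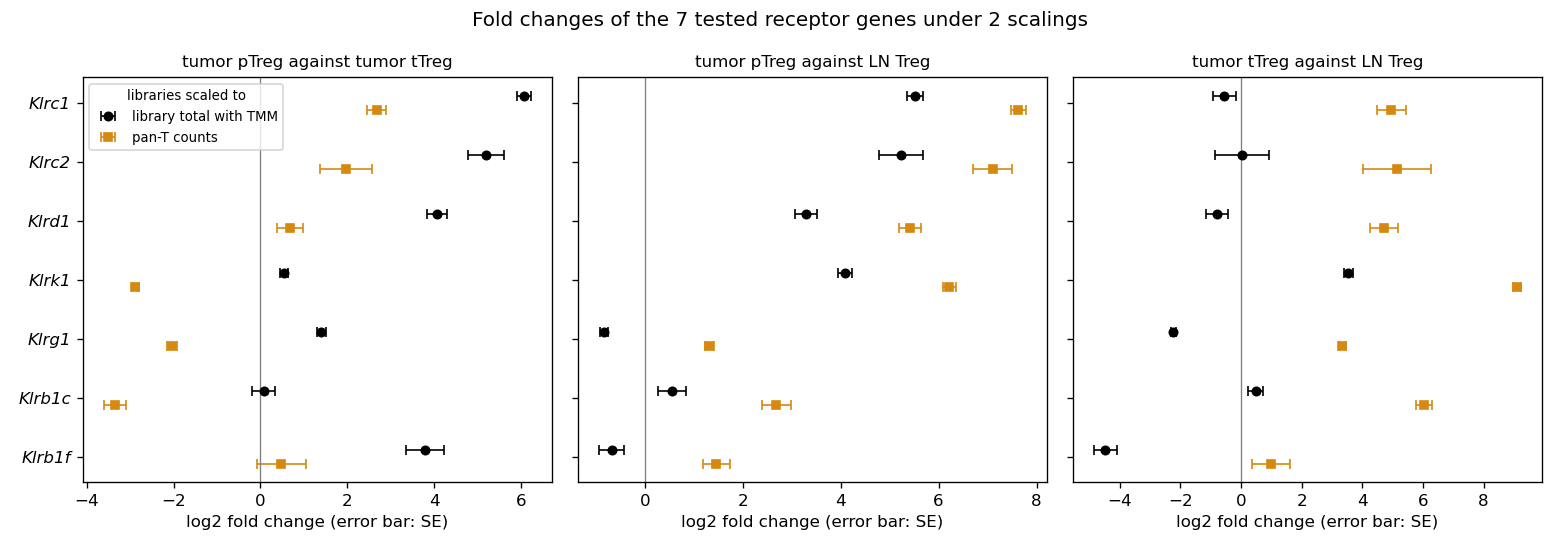
Log2 fold changes with SE (horizontal bars) of the 7 tested genes in the 3 comparisons, with libraries scaled to their totals by TMM (black circles) or to their pan-T counts (orange squares). Between the tumor groups Klrc1 and Klrc2 lie to the right of 0 under both scalings, while Klrk1 and Klrg1 change side.

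**Figure D3:**
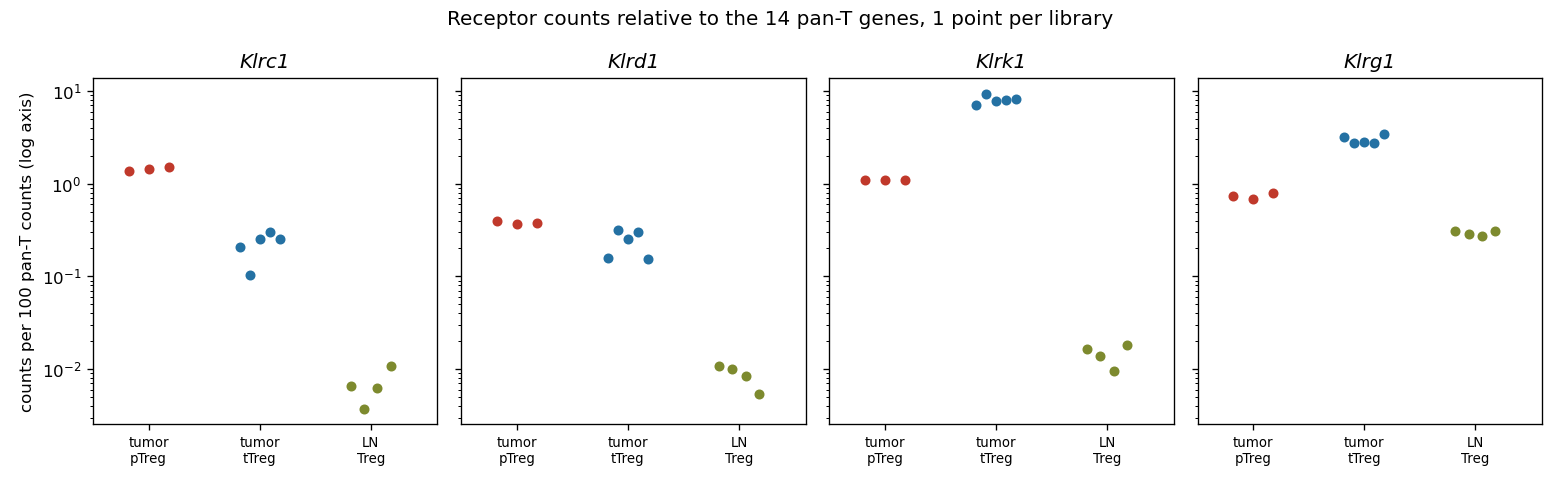
Counts of 4 receptors per 100 counts of the 14 pan-T genes, on a log axis, 1 point per library. Klrc1 is highest in tumor pTreg (mean 1.44), whereas Klrk1 (7.03 to 9.26) and Klrg1 are highest in tumor tTreg, and LN Treg is lowest for all 4.

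Ratios of receptors within a library do not depend on how libraries are scaled. The log2 ratio of Klrc1 to Klrd1 counts was 1.81, 1.96 and 1.98 in tumor pTreg libraries, against 0.363, -1.38, 0, 0 and 0.652 in tumor tTreg. The groups did not overlap, and the means differed by 1.99 (exact two-sided permutation test, p = 0.0357, the smallest that 3 against 5 libraries can give). The adjusted p was 0.0476 over 4 ratios and 0.0536 over 3, without the ratio of Ncr1, an alternative chosen after seeing the data, so the call depends on which ratios are counted. For Klrk1 to Klrd1 the log2 ratio was 1.47, 1.58 and 1.54 in tumor pTreg libraries, against 5.26, 4.77, 4.83, 4.63 and 5.54 in tumor tTreg. Its difference was -3.48, again without overlap and with the same exact permutation p and adjusted p. Both ratios restate the changes of their genes given above and are not separate support. Per library total these were 0.55 for Klrk1 and 4.08 for Klrd1, and per pan-T count -2.88 and 0.69. In each tumor tTreg library Klrd1 had only 3 to 6 counts and Klrc1 2 to 6.

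Klrc1 to Klrc2 overlapped between the tumor groups, with a difference of 1.20 in the log2 ratio (exact permutation p = 0.143, adjusted p = 0.143). Ncr1 to Klrd1 counts summed to 0 against 235 in tumor pTreg, 2 against 23 in tumor tTreg and 16 against 31 in LN Treg. With Ncr1 at 0 in most tumor libraries, its ratio between the tumor groups only restates Klrd1, and its test is not read as a result. Its p still entered the adjustment over 4 ratios. Against LN Treg the smallest p of the design was 0.0571 for tumor pTreg, and none of its 4 ratios could pass. By FPKM, tumor pTreg held 1.48 to 1.74 Klrc1 per Klrd1, against 0.186 to 0.596 in tumor tTreg and 0.2 to 0.937 in LN Treg.

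**Figure D4:**
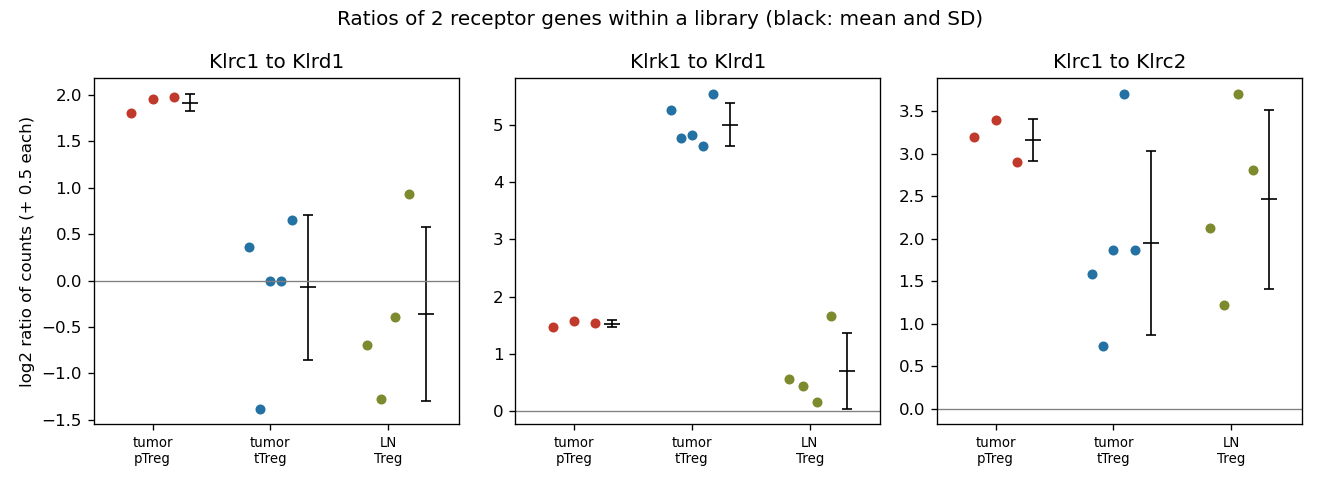
Log2 ratio of the counts of 2 receptors in the same library (0.5 added to each count), 1 point per library, with mean and SD in black. Klrc1 to Klrd1 is highest in tumor pTreg (1.81 to 1.98), Klrk1 to Klrd1 is highest in tumor tTreg (4.63 to 5.54), and Klrc1 to Klrc2 overlaps between the groups.

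Ordered by mean FPKM, tumor pTreg held Klrc1 (12.6), Klrk1 (10.8), Klrd1 (8.07) and Klrg1 (7.57), of which the last pair did not differ beyond their spread. Below them came Klrb1f (0.82), Klrc2 (0.69) and Klrb1c (0.637), which overlapped. Tumor tTreg was led by Klrk1 (7.73) and Klrg1 (2.9), with the mean of every other member under 1 FPKM. LN Treg was led by Klrg1 (14.5), followed by Klrb1f (1.42), and again the other means were under 1 FPKM.

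Markers of other cells that can carry these receptors moved with some of them. The CD8 genes Cd8a and Cd8b1 summed to 30.7 to 33.9 CPM in tumor pTreg, 0.939 to 1.26 in tumor tTreg and 18.3 to 23 in LN Treg. Both were higher in tumor pTreg than in tumor tTreg, as were 26.8% of all genes. Per pan-T count both stayed higher, at 1.72 for Cd8a (adjusted p = 4.78e-12) and 0.976 for Cd8b1 (adjusted p = 0.000236) on the log2 scale. Of all genes 0.484% were higher on that scale. Per 100 CD8 counts, Klrc1 was 46.5 to 55.7 in tumor pTreg, 8.70 to 29.4 in tumor tTreg and 1.13 to 2.82 in LN Treg, and Klrd1 was 12.5 to 14.1, 15.0 to 27.8 and 1.41 to 3.01. Tumor tTreg held only 17 to 23 CD8 counts a library. Of 10 NK cell markers, which include Ncr1 and Klrb1c, 5 were tested. The sum of all 10 was 33.0 to 34.7 CPM in tumor pTreg, 22.5 to 26.2 in tumor tTreg and 1.63 to 3.41 in LN Treg. Between the tumor groups 2 were higher (Gzma and Xcl1) and 1 lower (Styk1), against 26.8% and 25.3% of all genes. Per pan-T count 1 was higher (Xcl1, at 1.68) and 3 were lower, against 0.484% and 97.3% of all genes. Gzma was at -0.25 on that scale (adjusted p = 0.254). Of the defining NK markers, Ncr1 was at 0 in tumor pTreg and Klrb1c was near 1 CPM in all groups, and Klra4, Klra7, Klra8 and Klra9 were each at a mean of 0.166 CPM or less. Klra3 and Styk1 were at 0 in LN Treg, and together they made up most of the sum in tumor tTreg, at 4.22 and 17.9 CPM. Gzma read 5.79 CPM in tumor pTreg, 0.644 in tumor tTreg and 0.837 in LN Treg, and Xcl1 read 8.26, 0.240 and 0.547 CPM. For γδ and NKT cells 2 of 5 markers, Trdc and Zbtb16, were in the table, and they summed to 19.6 to 22.1, 12.9 to 14.8 and 7.75 to 8.83 CPM. Trdc read 4.52 ± 0.214 CPM in tumor pTreg, 3.52 ± 0.28 in tumor tTreg and 7.98 ± 0.572 in LN Treg, and Zbtb16 read 16.4 ± 1.04, 10.2 ± 0.693 and 0.0874 ± 0.101 CPM. Per library total both tumor groups were thus lower than LN Treg in Trdc and higher in Zbtb16. Per pan-T count Trdc too was higher, by 1.43 in tumor pTreg and 4.49 in tumor tTreg, as were 91.3 and 96.9% of all genes. Between the tumor groups edgeR called both genes higher in tumor pTreg and DESeq2 called 1, Zbtb16, where edgeR called 26.8% of all genes higher. Per pan-T count both were lower in tumor pTreg, at -3.06 for Trdc and -2.73 for Zbtb16, as were 97.3% of all genes. The part of CD8 T cells, NK cells and γδ or NKT cells in the receptor levels was not tested.

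Of 18 other receptor genes of the Klr families 5 were tested. Between the tumor groups 0 were higher (also 0 at an unadjusted p and by DESeq2) and 1 lower (median log2 fold change -0.22, against -0.01 over all genes). Of all genes 26.8% were called higher and 25.3% lower in that comparison. Per pan-T count all 5 were lower (median -3.64), as were 97.3% of all genes (median -3.44). Against LN Treg all 5 were higher in both tumor groups, where 47.6% of all genes were higher in tumor pTreg and 48.1% in tumor tTreg. Klra2, known from myeloid cells as Ly49B, read 59.9 ± 2.29 CPM in tumor pTreg, 62.9 ± 2.08 in tumor tTreg and 0.0896 ± 0.0737 in LN Treg. Its mean of 41.1 FPKM in tumor pTreg and 43.9 FPKM in tumor tTreg was above that of any of the 10 receptors there. Klrb1b, an inhibitory receptor for Clec2d, read 12.3 ± 1.05, 17.1 ± 0.571 and 0.860 ± 0.589 CPM, and fell by 0.47 on the log2 scale in tumor pTreg against tumor tTreg (adjusted p = 0.000155). Klra3 at 3.62 ± 0.52 and 4.22 ± 0.36 CPM and Klra17 at 2.34 ± 0.563 and 2.81 ± 0.402 CPM, in these tumor groups, did not pass between them.

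Adaptors and signalling genes of these receptors (13, all tested) gave 8 higher and 3 lower in tumor pTreg against tumor tTreg (median 0.16). Of all genes 26.8% were called higher and 25.3% lower. Per pan-T count 1 was higher and 11 lower (median -3.27), against 0.484% and 97.3% of all genes (median -3.44). Hcst, which encodes the NKG2D adaptor DAP10, read 9.88 ± 0.721 CPM in tumor pTreg, 1.98 ± 0.0902 in tumor tTreg and 22.7 ± 1.38 in LN Treg. It was higher in tumor pTreg than in tumor tTreg by 2.32 on the log2 scale (adjusted p = 5.88e-17), while per pan-T count the log2 difference was -1.10. Zap70 and Cd247, the kinase and the zeta chain of T cell receptor signalling, were higher by 3.57 and 3.77, with 0.15 (adjusted p = 0.0617) and 0.34 (adjusted p = 0.000445) per pan-T count. Inpp5d, the phosphatase SHIP1 that inhibitory receptors recruit, was higher by 0.48, with -2.95 per pan-T count.

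Ligand genes (13 of 17 in the table, 9 tested) gave 4 higher and 3 lower between the tumor groups (median 0.07). Of all genes 26.8% were called higher and 25.3% lower. Per pan-T count all 9 were lower (median -3.36), as were 97.3% of all genes (median -3.44). Cdh1, the E-cadherin bound by KLRG1, read 11.2 ± 0.656 CPM in tumor pTreg, 2.53 ± 0.4 in tumor tTreg and 0.763 ± 0.173 in LN Treg, and its log2 fold change between the tumor groups was 2.15 (adjusted p = 1.75e-15). Cdh2, the N-cadherin bound by KLRG1, read 48.8 ± 2.63, 65.3 ± 2.45 and 0.113 ± 0.118 CPM and fell by 0.41. Clec2i read 13.8 ± 0.359, 6.27 ± 0.531 and 94.6 ± 4.23 CPM, while Clec2f read 7.82 ± 0.314, 11.2 ± 0.716 and 0 CPM, so these Clec2 genes were opposed, with log2 changes of 1.14 and -0.51 between the tumor groups. Per pan-T count tumor pTreg was lower than tumor tTreg for all 4, at -1.28, -3.84, -2.28 and -3.94 for Cdh1, Cdh2, Clec2i and Clec2f. Cdh1 and Clec2i were above the median of all genes, and Cdh2 and Clec2f were below it.

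Of 12 other receptors of NK cells and T cells 10 were higher and 0 lower between tumor pTreg and tumor tTreg (median 2.92), with 0 lower also at an unadjusted p and by DESeq2. Of all genes 26.8% were called higher and 25.3% lower. Per pan-T count 1 of the 12 was higher and 8 were lower (median -0.50), against 0.484% and 97.3% of all genes (median -3.44). Il2rb, Il18rap, Tigit and Cd226 were higher by 3.11, 3.41, 3.16 and 3.38 on the log2 scale. Per pan-T count the same genes differed by -0.32 (adjusted p = 2.88e-09), -0.01 (adjusted p = 0.836), -0.27 (adjusted p = 0.00146) and -0.05 (adjusted p = 0.606). Of 9 transcription factors known from cytotoxic lymphocytes 8 were higher and 0 lower (median 0.74), with 0 lower also at an unadjusted p and 7 higher and 0 lower by DESeq2. Per pan-T count 3 were higher and 6 lower (median -2.69), to be read beside the same shares of all genes. Eomes read 16.4 ± 0.877 CPM in tumor pTreg, 0.208 ± 0.0712 in tumor tTreg and 0.902 ± 0.356 in LN Treg, a log2 change of 6.26 between the tumor groups and 2.88 per pan-T count (adjusted p = 3.15e-13). Tbx21, which encodes T-bet, read 34.5 ± 1.19, 1.78 ± 0.434 and 3.61 ± 0.191 CPM, a log2 change of 4.28, and 0.85 per pan-T count (adjusted p = 1.13e-08). Ets1 and Runx3 were higher by 2.94 and 0.74, with -0.49 and -2.69 per pan-T count.

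Other genes whose means followed the same pattern over the 3 groups were ranked by distance of centred log2(CPM + 0.1) values, over 11161 genes of at least 5 CPM in their highest group. For Klrc1 they were Il21 (10.3, 0.0989 and 0.287 CPM in tumor pTreg, tumor tTreg and LN Treg), Il13 and Il22, at distances of 0.366, 0.657 and 0.699. For Klrd1 they were Il12rb2, Tbx21 and Gzma (0.152, 0.385 and 0.477), and for Klrk1 they were Sema4c, Havcr2 and Asb2 (0.131, 0.217 and 0.234). Klrg1 lay nearest to Rrad, Crybg1 and Stk17b, at 0.0313, 0.0775 and 0.0831. With 3 group means many genes lie close to any pattern.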

How the data were processed

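RNA of 12 Treg libraries was sequenced on BGISEQ-500. The submitters' processing notes name STAR 2.7.11a, RSEM 1.3.3, DESeq2 and the build GRCm38 (mm10). The unit of the deposited count table is the expected count per gene, in whole numbers as deposited, and that of the other deposited table is FPKM, which the authors scaled to transcript length and depth. Neither annotation nor strand handling is given in the sources used here.

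Of 27279 genes with counts, 15705 passed filterByExpr of edgeR (0.553 CPM in enough libraries) and were tested with R 4.3.3, edgeR 4.0.16 (quasi-likelihood F test, TMM, group only, all 12 libraries in 1 fit, Benjamini-Hochberg within a comparison, threshold 0.05). Every adjusted p is from that fit unless another test is named. limma 3.58.1 on log2 FPKM, DESeq2 1.42.0, other scalings and filters and each library left out were alternatives. Ratios within libraries used exact permutation tests. The edgeR test was also run on simulated counts in which 200 genes changed. That check does not cover comparisons in which most genes change.

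The genes named are the members, up to 4 genes with the smallest p from each of 5 pathway lists, and the 3 nearest patterns of 6 members. The members and lists were chosen with earlier results of these data known. Within a group, pairs of libraries had chi-square values of 1.65 to 3.97 per degree of freedom, above counting noise, and each library counted as 1 replicate. Promoter windows are RefSeq's and positions are GENCODE's. A search of proteins for inhibitory motifs was not run, since protein sequences were not used here.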

Additional observations from a re-analysis of the deposited data

Results flagged for a closer look

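Among 58 groups of 4 or 5 libraries screened for 1 library far from the others, 8 held one. The rule is set to flag about 1 in 20 by chance. CPM and FPKM of a gene were screened as separate groups, and several flags are 0 counts against 1. The number of flags therefore cannot be compared with that rate. All flagged values lie at levels of a few counts. In LN Treg replicate 4 Klrc1 read 0.59 FPKM, against 0.21 to 0.26 FPKM in the other LN Treg libraries. Klrc2 was at 0 CPM in tumor tTreg replicate 4 (0.054 to 0.0552 in the others) and at 0 CPM in LN Treg replicate 3 (0.0581 to 0.0686 in the others), which is 0 counts against 1. Klrc2 read 0.13 FPKM in tumor tTreg replicate 1, where the others had 0 to 0.02 FPKM although each of its counts was 0 or 1. Klre1 had its only count of tumor tTreg in replicate 2, at 0.0546 CPM and 0.09 FPKM. Klri2 read 0.235 CPM and 0.07 FPKM in LN Treg replicate 1, against 0.0577 to 0.0686 CPM and 0.02 FPKM in the others.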

How the results depend on the processing

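Of 471 alternative values of member fold changes 420 kept direction and side of the threshold, 14 lost the call, 9 gained one and 28 changed sign, of which 10 lie outside the pan-T and CD3 scalings. Scaled to pan-T and to CD3 counts, genes called between the tumor groups numbered 15351 and 15360 (8184 by TMM; 76 higher and 15275 lower, and 64 higher and 15296 lower), members higher 3 and 2 (6 by TMM) and lower 3 and 3 (0). For tumor pTreg against LN Treg members higher were 7 and 7 (4) and lower 0 and 0 (2), and for tumor tTreg against LN Treg 6 and 6 (1) and 0 and 0 (3). A filter at a mean of 1 CPM left 1 member lower in tumor pTreg against LN Treg. Signs changed under the pan-T and CD3 scalings for Klrk1 (-2.88 and -2.96), Klrg1 (-2.03 and -2.11) and Klrb1c (-3.35 and -3.43) between the tumor groups, for Klrg1 (1.32 and 1.40) and Klrb1f (1.46 and 1.55) in tumor pTreg against LN Treg, and for Klrc1 (4.95 and 5.12), Klrd1 (4.72 and 4.89), Klrg1 (3.34 and 3.52) and Klrb1f (0.98 and 1.15) in tumor tTreg against LN Treg. These scalings shift all genes by construction. Klrb1c, uncalled between the tumor groups, was at -0.059 and -0.032 with log2(FPKM + 0.1) and log2(FPKM + 1), and Klrc2, uncalled between tumor tTreg and LN Treg, was at -0.046 with library totals. Leaving out 1 library gave 0.90 to 1.64 for Klrc1 to Klrc2, -0.090 to 0.164 for Klrb1c between the tumor groups and -0.35 to 0.32 for Klrc2 between tumor tTreg and LN Treg. It gave 1 to 2 members lower in tumor pTreg against LN Treg, and 1 to 2 higher and 2 to 3 lower in tumor tTreg against LN Treg. The log2 ratios ranged over 1.67 to 2.17 for Klrc1 to Klrd1, -3.57 to -3.34 for Klrk1 to Klrd1 and -4.90 to -4.28 for Ncr1 to Klrd1, none past the threshold with so few libraries. With p adjusted over 3 ratios, without Ncr1 (chosen after seeing the data), Klrc1 to Klrd1 at 1.99 and Klrk1 to Klrd1 at -3.48 had an adjusted p of 0.0536. Values of Ncr1 to Klrd1 restate Klrd1, since Ncr1 is at 0 in most tumor libraries.

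Replicate numbers are not stated to pair the samples. Deviations of same-numbered tumor libraries correlated at -0.0793, -0.0141 and 0.0399, and those of differently numbered ones at -0.0596 to 0.099. So few pairs cannot tell whether same-numbered libraries share an animal. With a replicate block 7057, 12995 and 13512 genes were called in the 3 comparisons, and the ratios were 2.26 for Klrc1 to Klrd1, -3.43 for Klrk1 to Klrd1 and -3.98 for Ncr1 to Klrd1, each at an adjusted p of 0.25, the smallest that 3 pairs allow. With the block, or with the compared groups only, Klrc1, Klrc2 and Klrd1 did not pass the filter in tumor tTreg against LN Treg. Depth limits Klrc1, Klrc2, Klrd1 and Klrb1f in tumor tTreg, Ncr1, Klre1 and Klri2 in all groups.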

Other observations

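The remaining marker lists were read in the same libraries. B cell markers (5 genes) summed to 40.6 to 42.9 CPM in tumor pTreg libraries, 34.7 to 39.9 in tumor tTreg and 15.3 to 17.2 in LN Treg, and neutrophil markers (5 genes) to 40.0 to 41.2, 38.1 to 41.5 and 1.12 to 1.86 CPM. Fibroblast markers (6 genes) summed to 127 to 150, 658 to 781 and 1.65 to 3.22 CPM, with all 6 lower in the tumor pTreg libraries than in tumor tTreg. In that comparison 25.3% of all genes were called lower. Klrb1c, flat over the groups, lay nearest in pattern to Amd1, Bcl7c and Smim10l1, which read 138, 18.9 and 33.8 CPM in tumor pTreg libraries, 132, 18.2 and 32.3 in tumor tTreg and 103, 14.2 and 25.1 in LN Treg. Ncr1 lay nearest to Cfap74, Zfp870 and Kyat1, a likeness that rests on the 0.1 CPM added to its level of 0 in tumor pTreg. Without a filter on low counts, the edgeR log2 fold changes of Klri2 were 2.01 against tumor tTreg (adjusted p = 0.000139) and 2.79 against LN Treg (adjusted p = 2.12e-06) in tumor pTreg, values that depend on the prior count.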
